A study of Mus musculus with 6 samples.

Results

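The genes described here encode the RNA polymerases of the cell, the Mediator complex and the TBP-associated factors, or Tafs, which include the subunits of TFIID. They were chosen by symbol alone, as Polr followed by a digit or mt, Med followed by digits, or Taf followed by digits, and 78 of the 10128 genes in the authors' deposited table matched. Of these 78, 29 are Polr genes, 29 are Med genes and 20 are Taf genes. GENCODE release M21 lists 82 protein-coding genes with such a symbol; Med12l, Taf7l, Taf9 and Taf9b were not analysed here. The table starts at a mean of 3.52 CPM (read counts scaled to library depth), so its genes had passed a filter on low values.

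Mouse embryonic stem (ES) cells were profiled by sequencing of messenger RNA. There were 3 libraries of Tex19.1-/- cells, which lack the mammal-specific gene Tex19.1, and 3 of Tex19.1+/- cells, which keep 1 copy. All cells descend from E14Tg2a, an ES line of 129/Ola background, were grown with serum and leukaemia inhibitory factor, and were used at passages 12 to 18. How many clones or separate cultures stand behind the libraries of a genotype is not stated in the labels, so the p-values measure the spread between these libraries, which may be technical. The deposited values are the authors' own comparison, with 1 log2 fold change, 1 mean level, 1 p-value and 1 adjusted p per gene. Values and depth per library were not used here, so no spread stands beside a fold change. Instead a standard error was computed from each fold change and its p-value, and it lay between 0.035 and 0.0768 on the log2 scale for every one of the 78 genes.

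The header of the authors' deposited table names no direction for its fold changes. Since its lowest value, -6.92, belongs to Tex19.1 itself, they are read as Tex19.1-/- over Tex19.1+/-. The labelled cell type was checked against its markers: all 9 of 9 listed ES cell markers were measured, at 192 to 1566 CPM over all libraries. In Tex19.1-/- cells 3 of these rose and 3 fell. Of 9 fibroblast and feeder markers 3 were measured, and 1 rose and 2 fell. Of 11 endoderm markers 8 were measured and all 8 fell in Tex19.1-/- cells, from -2.93 to -1.19 in the authors' deposited table, at means of 7.38 to 158 CPM. In such bulk libraries, fewer endoderm-like cells and less RNA per cell cannot be told apart, and the part of this difference in the values below was not tested.

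Nuclear genes are read by 3 RNA polymerases. Pol I makes the large ribosomal RNA precursor, Pol II makes messenger RNA, and Pol III makes transfer RNA, 5S ribosomal RNA and other short RNAs. The polymerases share a set of small subunits and a related catalytic core. TFIID recognises Pol II promoters through TBP and its Tafs, and Mediator carries signals from enhancer-bound factors to Pol II. Mediator has a head, a middle and a tail, a scaffold subunit that joins them, and a kinase module that can come and go. In ES cells, Mediator is known for high occupancy at enhancers of pluripotency genes.

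More genes of the transcription machinery rose than fell in Tex19.1-/- cells, and the largest changes were falls, of Polr3gl, Polr3d and Med4. With the threshold set at an adjusted p of 0.05, the authors' deposited table had 31 of the 78 genes higher in Tex19.1-/- cells, 12 lower and 35 that did not pass. Of all genes, 51.7% passed that threshold in the authors' deposited table, 25.2% higher and 26.5% lower, so 55.1% of the 78 is close to the background. By direction, 39.7% of the 78 rose and 15.4% fell, and these shares carry no test of their own. The median log2 fold change was 0.04 for the 78 genes and 0.0031 for all genes in the authors' deposited table. The changes that passed were small, with a median size of 0.16 for the 78 genes and 0.22 for all genes in the authors' deposited table. With a size of at least 0.2 asked as well, 10 of the 78 genes were higher and 5 lower, against 12.0% higher, 17.2% lower and 29.2% in either direction among all genes.

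**Figure D1:**
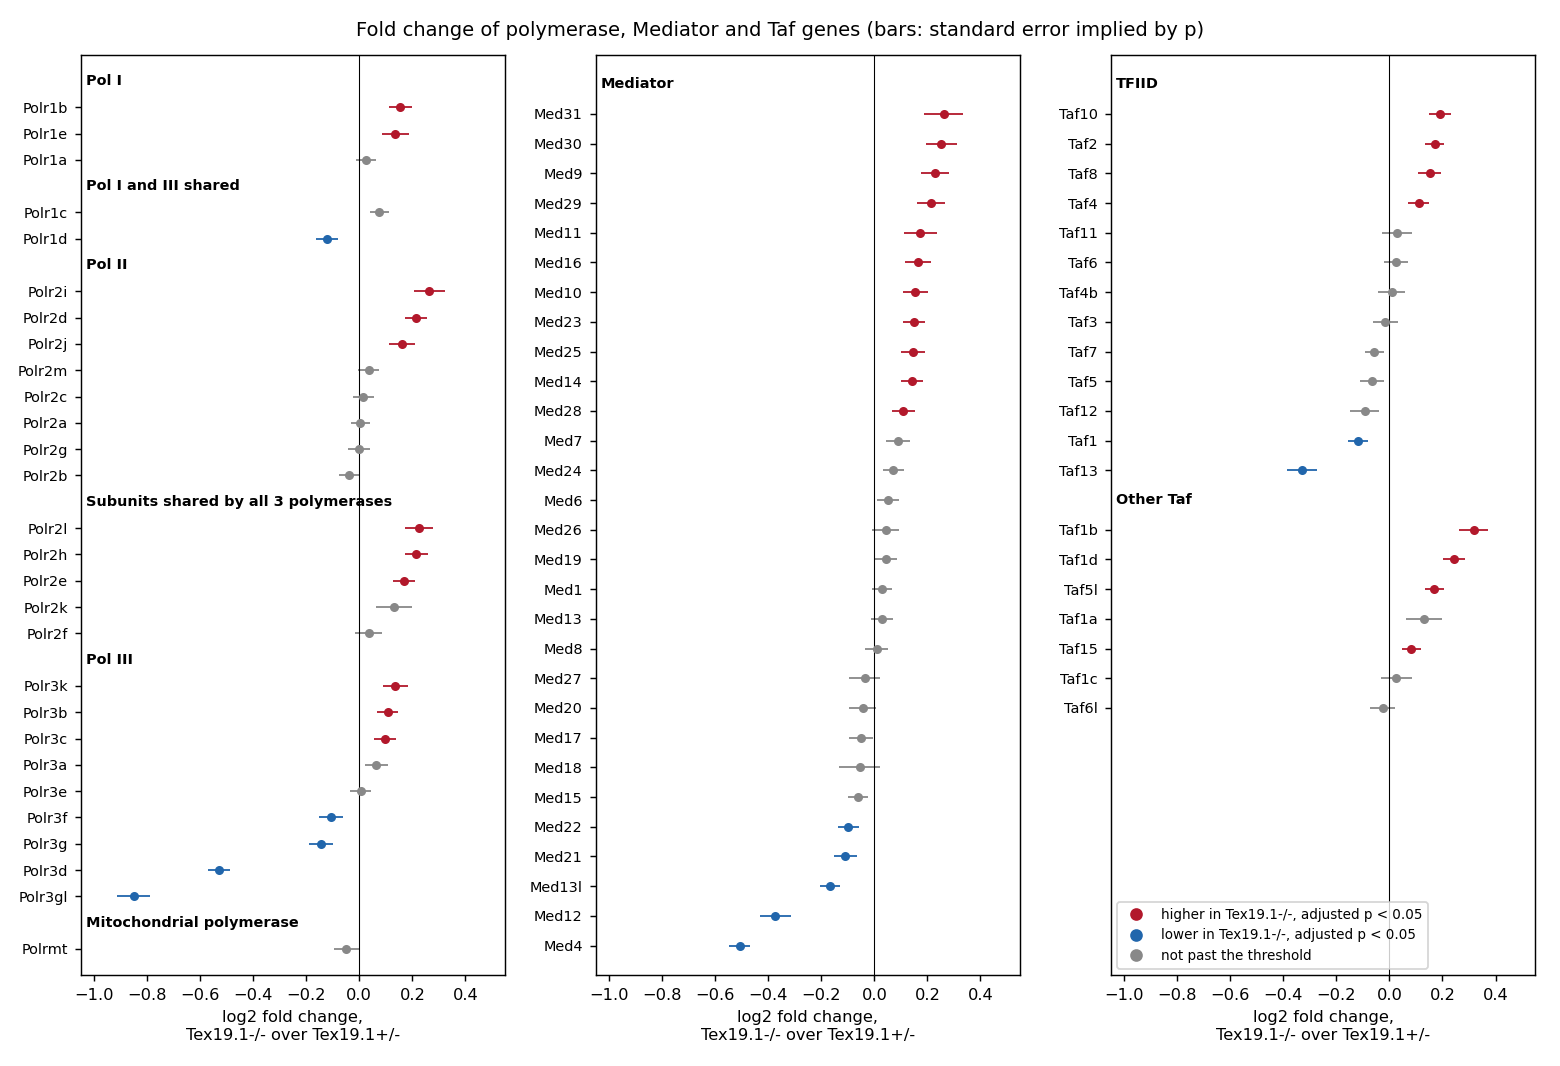
Log2 fold change (Tex19.1-/- over Tex19.1+/-, x axis) of 77 of the 78 genes, ordered within each complex; points are the deposited values, bars the standard error implied by the p-value, and colour marks genes past an adjusted p of 0.05. Polr3gl at -0.85, Polr3d at -0.53 and Med4 at -0.51 lie farthest from 0, and no gene lies above 0.32.

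Of 3 genes specific to Pol I, 2 rose and none fell. Polr1b, which encodes the second-largest, catalytic subunit, stood at 0.15 (adjusted p = 0.000779), and Polr1e, a Pol I-specific subunit, at 0.14 (adjusted p = 0.0189) per the authors' deposited table. Polr1a, the largest and catalytic subunit, stood at 0.03 (adjusted p = 0.577) per the authors' deposited table. The pair common to Pol I and Pol III split. Polr1d fell, at -0.12 (adjusted p = 0.00905), while Polr1c did not pass, at 0.08 (adjusted p = 0.0722) per the authors' deposited table. Subunits of the polymerases and of Mediator that carry other symbols form a separate list of 7, of which 2 rose and 2 fell. Among them, the Pol III subunit gene Crcp rose at 0.18 (adjusted p = 0.002696) per the authors' deposited table. Of the Pol I subunits on that list, Znrd1, the zinc-ribbon subunit, fell at -0.17 in the authors' deposited table. Cd3eap at 0.15 (adjusted p = 0.02405) and Twistnb at 0.02 (adjusted p = 0.721), named here after their values were seen, are the other Pol I subunits in the authors' deposited table.

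The promoter factor of Pol I held the highest fold change of the whole set. SL1, which brings TBP to ribosomal DNA promoters, holds Taf1a, Taf1b, Taf1c and Taf1d, and 2 of these 4 rose. Taf1b stood at 0.32 (adjusted p = 9.155e-08) per the authors' deposited table. It lies on chromosome 12 from 24498359 to 24558539 (GRCm38, plus strand). Taf1d stood at 0.24 (adjusted p = 2.405e-08), Taf1a at 0.13 (adjusted p = 0.0996) and Taf1c at 0.03 (adjusted p = 0.733) per the authors' deposited table. Small nucleolar RNA genes lie within Taf1d on the same strand, and how reads there were assigned is not stated in the labels. Of 5 further Pol I factors 1 rose and 1 fell. The nucleolar phosphoprotein gene Nolc1 was at 0.18, the terminator gene Ttf1 at -0.14 and Tcof1 at 0.07 (adjusted p = 0.154) per the authors' deposited table.

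In Pol II, genes of small subunits rose, and those of the catalytic core did not pass. Polr2a, the largest subunit, whose heptad-repeat tail is phosphorylated during transcription, had the highest mean level of the 78 genes, 573 CPM, and stood at 0.0036 (adjusted p = 0.9425) per the authors' deposited table. The 95% interval computed from its p-value runs from -0.07 to 0.07. Polr2b, the second-largest subunit, stood at -0.04 (adjusted p = 0.406) per the authors' deposited table. Of the 8 genes of Pol II alone, 3 rose and none fell. Polr2i, a zinc-ribbon subunit used in proofreading, was at 0.26 (adjusted p = 2.26e-05), the stalk subunit Polr2d at 0.21 (adjusted p = 1.99e-06) and the assembly subunit Polr2j at 0.16 (adjusted p = 0.00269) per the authors' deposited table. Their partners did not pass: Polr2g of the stalk stood at -0.0024 (adjusted p = 0.969) and Polr2c of the assembly pair at 0.01 (adjusted p = 0.775) per the authors' deposited table. Polr2m, a Pol II-associated protein also called Gdown1, stood at 0.04 (adjusted p = 0.463) per the authors' deposited table.

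The subunits that all 3 polymerases share leaned the same way. Of 5, 3 rose and none fell, with a median of 0.17 in the authors' deposited table. Polr2l was at 0.23 (adjusted p = 8.92e-05), Polr2h at 0.21 (adjusted p = 2.68e-06) and Polr2e at 0.17 (adjusted p = 9.86e-05) per the authors' deposited table. Polr2k at 0.13 (adjusted p = 0.0859) and Polr2f at 0.04 (adjusted p = 0.582) did not pass in the authors' deposited table. Short transcripts were on the whole higher in the table. Among all genes with a transcript of at most 1500 bases the median log2 fold change was 0.06, and 34.8% rose; among the 78, 24 genes had such a transcript, and their median was 0.13. The trend of fold change with GC content and transcript length was therefore subtracted. Polr2l then stood at 0.20, Polr2h at 0.14, Polr2e at 0.13, Polr2i at 0.20 and Polr2d at 0.14, all still past the threshold, whereas Polr2j at 0.08 (adjusted p = 0.149) no longer passed. After that subtraction 50.2% of the 9703 genes tested passed, 24.1% higher and 26.1% lower, and of the 78 genes 27 were higher and 12 lower.

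**Figure D2:**
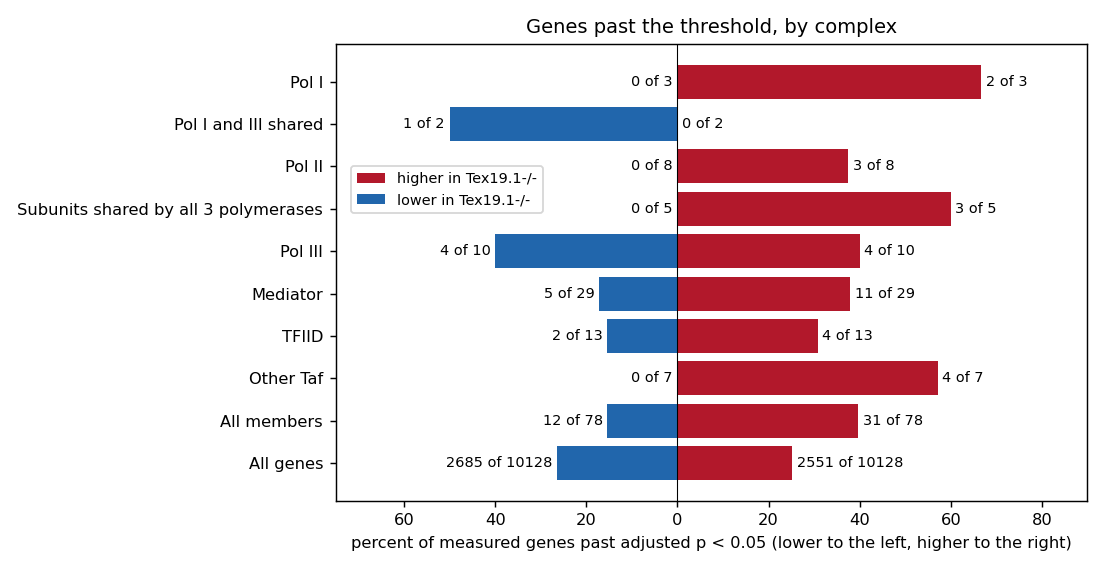
Percent of measured genes past an adjusted p of 0.05 (x axis), lower in Tex19.1-/- to the left and higher to the right, for each complex, all 78 genes and all 10128 genes, with the counts printed at the bars. Pol III is split 4 to 4, and the subunits shared by all 3 polymerases hold no fall.

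Pol III was the most divided of the polymerases and held the largest change. Of its 10 genes 4 rose, 4 fell and 2 did not pass. Polr3gl had the lowest fold change of the 78 genes, -0.85 (adjusted p = 1.45e-40), per the authors' deposited table, or 55.5% of the Tex19.1+/- level. The 95% interval computed from its p-value runs from -0.97 to -0.73. Polr3gl spans 96577872 to 96594181 on chromosome 3 (GRCm38, minus strand). Its protein and that of its paralog Polr3g take the same place in the initiation trimer, so that Pol III exists in alternative forms, and the Polr3g form is known from pluripotent cells. Polr3g, on chromosome 13 from 81673843 to 81711013, fell too, at -0.14 (adjusted p = 0.003) per the authors' deposited table.

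Per kilobase of transcript, the mean level of Polr3g over all libraries was 25.4 CPM, the highest of the 10 Pol III genes, and that of Polr3gl was 8.99 CPM. Levels per genotype were derived from this mean and the fold change. Polr3gl came to 6.42 CPM per kilobase in Tex19.1-/- cells and 11.6 in Tex19.1+/- cells. Polr3g came to 24.1 CPM per kilobase in Tex19.1-/- cells and 26.6 in Tex19.1+/- cells. Polr3gl thus made up 21.03% of the pair's summed level in Tex19.1-/- cells and 30.27% in Tex19.1+/- cells, and the sum itself was 0.799 times as high in Tex19.1-/- cells. These levels carry no test of their own.

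The fall of Polr3gl was shared by the genes beside it. Ankrd34a, the next measured gene, lies 2.5 kilobases away on the other strand and stood at -0.87 (adjusted p = 1.67e-21) per the authors' deposited table. Lix1l, 7.0 kilobases away, was at -0.68 (adjusted p = 1.70e-18), and Txnip, a thioredoxin inhibitor gene 16 kilobases away on the other side, at -0.37 (adjusted p = 7.27e-18) per the authors' deposited table. Beyond them Rbm8a, 35.8 kilobases away, stood at 0.07 (adjusted p = 0.123) per the authors' deposited table. These neighbours were named after their values were seen. Polr3c, another member of the initiation trimer, lies 117.3 kilobases away and rose, at 0.10 (adjusted p = 0.0426) per the authors' deposited table. That call ended when fold changes were recentred on the median of all genes, at 0.09, and when the GC and length trend was subtracted, at 0.085 (adjusted p = 0.076). The 20 measured genes nearest to Polr3gl had a median of -0.05. Polr3gl also overlaps Gm16253 on the opposite strand over 2792 bases, and whether the counting used strand is not stated in the labels.

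The second large fall in Pol III was on a stretch of chromosome 14 where nearly all genes were lower. Polr3d, one of the TFIIF-like pair of Pol III, stood at -0.53 (adjusted p = 9.60e-36) per the authors' deposited table. It lies from 70438757 to 70443447 on chromosome 14 (GRCm38, minus strand). All 20 of its 20 nearest measured genes fell, with a median of -0.74, so Polr3d was 0.21 above its neighbours. Its partner Polr3e stood at 0.006 (adjusted p = 0.911) per the authors' deposited table. Polr3f, the remaining trimer subunit, fell at -0.11 (adjusted p = 0.0371) per the authors' deposited table; its 20 nearest genes on chromosome 2 had a median of 0.12, 11 of them higher and 2 lower.

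Beside Polr3c, the zinc-ribbon subunit and a catalytic subunit of Pol III rose. Polr3k, the zinc-ribbon subunit, was at 0.14 (adjusted p = 0.00769) and the second-largest, catalytic subunit Polr3b at 0.11 (adjusted p = 0.0138) per the authors' deposited table. Polr3a, the largest and catalytic subunit, did not pass, at 0.06 (adjusted p = 0.21) per the authors' deposited table. Of 16 Pol III transcription factors 4 rose and 3 fell. Gtf3a, the TFIIIA gene for 5S RNA, stood at -0.27, Snapc5 of the small nuclear RNA activator at 0.32 and Gtf3c6 of TFIIIC at 0.18 in the authors' deposited table.

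**Figure D3:**
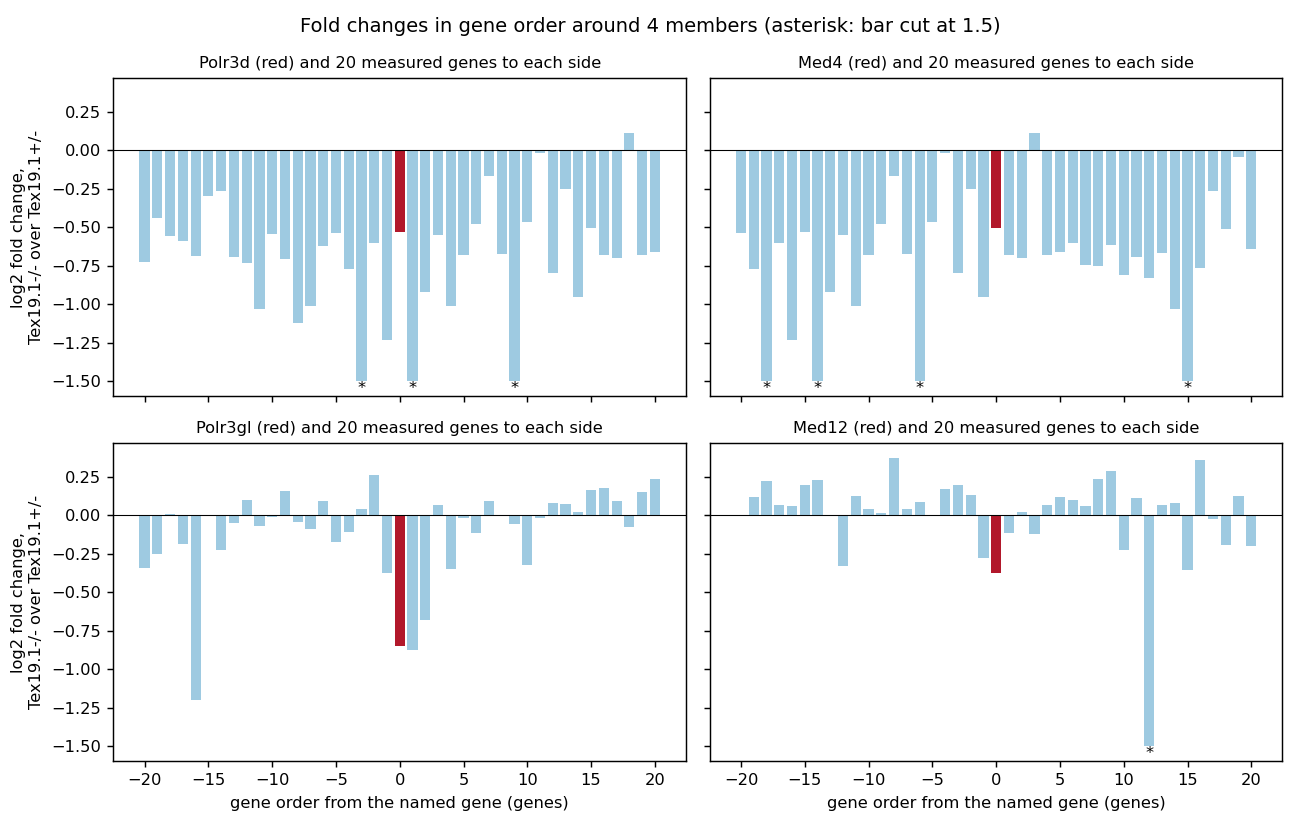
Log2 fold change (Tex19.1-/- over Tex19.1+/-, y axis) of Polr3d, Med4, Polr3gl and Med12 (red) and of the 20 measured genes to each side in gene order (x axis, gene positions from the named gene). Around Polr3d and Med4 nearly every gene is below 0, and Polr3gl lies within a run of 4 lowered genes; bars that reach past the axis end at it and carry an asterisk.

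Polrmt, the single-subunit polymerase of mitochondria, did not pass, at -0.05 (adjusted p = 0.384) per the authors' deposited table. Of 6 measured genes on a list for mitochondrial transcription 4 rose and none fell, where 25.2% of all genes rose. These counts carry no test of their own. The elongation factor gene Tefm was at 0.61, the packaging and promoter factor gene Tfam at 0.14 and Mterf4 at 0.20 in the authors' deposited table.

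Among the Med genes of Mediator, small rises occurred in every module but the kinase module. The falls were Med12 and Med13l of the kinase module, Med4 and Med21 of the middle, and Med22 of the head. Of 29 genes 11 rose, 5 fell and 13 did not pass, with a median of 0.04 in the authors' deposited table. Its lowest value was Med4, a middle subunit, at -0.51 (adjusted p = 1.23e-35) per the authors' deposited table. Med4 lies from 73510025 to 73518849 on chromosome 14 (GRCm38, plus strand), on the same lowered stretch as Polr3d. Of its 20 nearest measured genes 18 fell and none rose, with a median of -0.68, so Med4 was 0.17 above them. Both Med4 and Polr3d change sign when set against their neighbours, to 0.17 (adjusted p = 5.75e-05) and 0.21 (adjusted p = 3.20e-06). These adjusted p-values take the neighbour median as fixed and leave out the spread among neighbours. The 20 genes nearest to Polr3d ran from -1.74 for Dok2 to -0.16 for Fgf17, both named after their values were seen. Whether Polr3d or Med4 departs from its stretch was not tested.

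The kinase module, which binds core Mediator reversibly and phosphorylates transcription factors, was the only Mediator module in which more genes fell than rose, with 2 of 3 measured Med genes lower and none higher. Med12, which activates the kinase, stood at -0.37 (adjusted p = 8.95e-10) per the authors' deposited table. It lies from 101274030 to 101297465 on chromosome X (GRCm38, plus strand). Its 20 nearest genes had a median of 0.08. Med12 thus stood lower still against them, at -0.45. Yet the measured genes to either side of it, named after their values were seen, fell too. Foxo4, 13.2 kilobases before it, was at -0.28 (adjusted p = 2.38e-11) per the authors' deposited table. Zmym3, 106.9 kilobases away on the other side, was at -0.12 (adjusted p = 0.00657) per the authors' deposited table. Med13l, a paralog of Med13, was at -0.17 (adjusted p = 3.49e-05), and Med13, which links the module to core Mediator, at 0.03 (adjusted p = 0.576) per the authors' deposited table. The 20 genes nearest to Med13l had a median of -0.083, and against them it stood at -0.085 (adjusted p = 0.04809). With the GC and length trend subtracted, Med12 stood at -0.34 (adjusted p = 4.21e-08) and Med13l at -0.11 (adjusted p = 0.00845). Per kilobase, Med13l made up 70.5% of the pair's level in Tex19.1-/- cells and 73.2% in Tex19.1+/- cells. Of the module's other genes, Ccnc, the cyclin, fell at -0.25 (adjusted p = 1.51e-08) per the authors' deposited table. The kinase genes Cdk8 at 0.05 (adjusted p = 0.382) and Cdk19 at 0.04 (adjusted p = 0.465), named after their values were seen, did not pass in the authors' deposited table.

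Of the 9 middle genes 3 rose and 2 fell. Med31 was at 0.26 (adjusted p = 0.00108), Med9 at 0.23 (adjusted p = 4.71e-05) and Med10 at 0.15 (adjusted p = 0.00353) per the authors' deposited table. Beside Med4, the middle subunit Med21 fell at -0.11 (adjusted p = 0.0234) per the authors' deposited table. Med1, which binds nuclear receptors, stood at 0.03 (adjusted p = 0.527), and Med7, Med19 and Med26 lay between 0.04 and 0.09 and did not pass in the authors' deposited table. Med14, the scaffold, rose at 0.14 (adjusted p = 0.00151) per the authors' deposited table.

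In the tail, which meets activators, 3 of 5 genes rose and none fell. Med16 was at 0.16 (adjusted p = 0.00172), Med23 at 0.15 (adjusted p = 0.0006235) and Med25 at 0.15 (adjusted p = 0.00314) per the authors' deposited table, while Med24 at 0.07 and Med15 at -0.06 did not pass there. Of the 4 genes between head and tail 3 rose. Med30 was at 0.25 (adjusted p = 3.55e-05), Med29 at 0.21 (adjusted p = 0.000202) and Med28 at 0.11 (adjusted p = 0.0277), against -0.04 for Med27 (adjusted p = 0.635) per the authors' deposited table.

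The head, which contacts Pol II directly, was the least changed of the larger modules. Of its 7 genes 1 rose and 1 fell. Med11 was at 0.17 (adjusted p = 0.0136) and Med22 at -0.10 (adjusted p = 0.0283) per the authors' deposited table, and the other five, Med6, Med8, Med17, Med18 and Med20, lay between -0.05 and 0.05. Med20 overlaps Gm20517 on the same strand over 12830 bases, so its reads cannot be told from those of that gene where both have exons.

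Several Mediator rises were smaller when set against neighbouring genes, and no longer passed the threshold there. Chromosome 11 carries 9 of the 78 genes, and the median over its 808 measured genes was 0.07 in the authors' deposited table. Of these 9 genes 4 rose and none fell. Set against the 20 nearest genes, Med31 stood at 0.15 (adjusted p = 0.06475), Med9 at 0.11 (adjusted p = 0.07175) and Med11 at 0.04 (adjusted p = 0.61), none past the threshold. Off chromosome 11, Med28 stood at 0.0005 (adjusted p = 0.9939), Med14 at 0.08 (adjusted p = 0.09377), Med16 at 0.11 (adjusted p = 0.05017) and Med23 at 0.09 (adjusted p = 0.06267), and the fall of Med22, at -0.07 (adjusted p = 0.1084), did not pass either. Med30, on chromosome 15, stood at 0.29 and Med10, on chromosome 13, at 0.25 above their neighbours. With the GC and length trend subtracted instead, Med10 at 0.08 (adjusted p = 0.1568) and Med11 at 0.10 (adjusted p = 0.1721) did not pass, and Med24 at 0.09 (adjusted p = 0.04181) did. In the reading against the 20 nearest genes, 6 Mediator genes were higher and 4 lower, against 11 and 5 as deposited. Over the 9683 genes tested in this way the reading against neighbours passed 51.8%, with 25.2% of genes higher and 26.6% lower. Its adjusted p-values take the neighbour median as fixed and leave out the spread among neighbours. Polr2a, also on chromosome 11, stood at -0.15 against its neighbours (adjusted p = 7.91e-05), whose median was 0.16. Further genes passed only in this reading: Polrmt at -0.14 (adjusted p = 0.004613), Med17 at -0.12 (adjusted p = 0.01645), Taf12 at -0.13 (adjusted p = 0.03563), Taf5 at -0.11 (adjusted p = 0.03804), Polr3a at 0.12 (adjusted p = 0.01234), Taf1a at 0.16 (adjusted p = 0.04038) and Med20 at 0.12 (adjusted p = 0.04861).

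**Figure D4:**
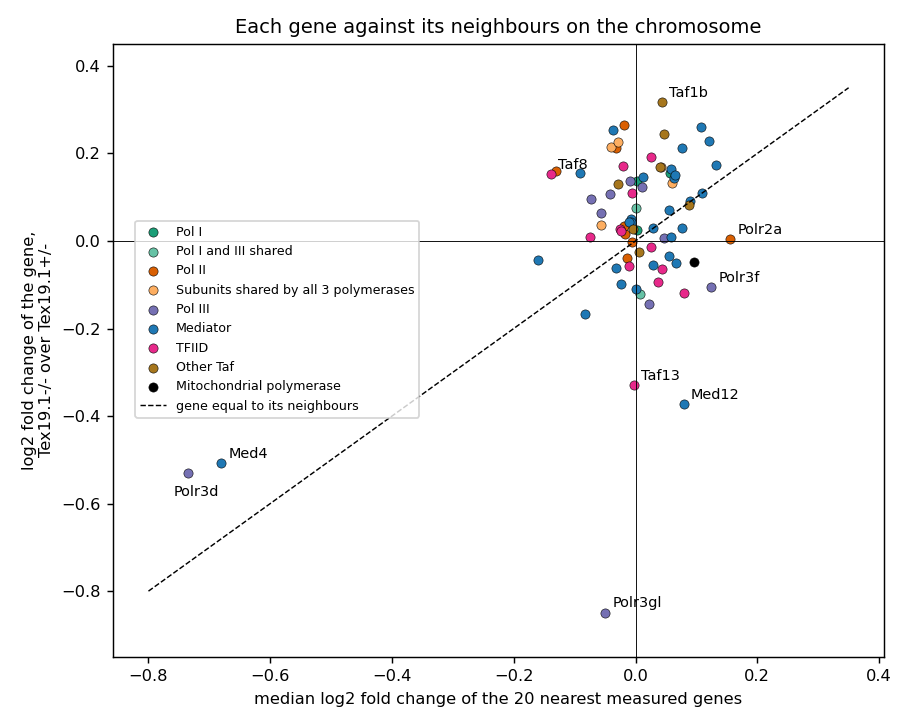
Log2 fold change of each of the 78 genes (Tex19.1-/- over Tex19.1+/-, y axis) against the median of its 20 nearest measured genes (x axis), coloured by complex, with a dashed line where both are equal. Polr3d and Med4 sit 0.21 and 0.17 above the line with neighbours at -0.74 and -0.68, while Polr3gl, Med12 and Taf13 lie far below it.

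TFIID held 1 larger fall and otherwise small changes. Of 13 measured genes of TFIID 4 rose, 2 fell and 7 did not pass, with a median of 0.0089 in the authors' deposited table. The largest change was in Taf13, a histone-fold subunit that pairs with Taf11, at -0.33 (adjusted p = 1.66e-08) per the authors' deposited table. Taf13 lies from 108571698 to 108583222 on chromosome 3 (GRCm38, plus strand), and its 20 nearest genes had a median of -0.003. Taf11, its partner, stood at 0.03 (adjusted p = 0.695) per the authors' deposited table. Taf1, the largest subunit, on chromosome X 235.3 kilobases from Med12, fell at -0.12 (adjusted p = 0.00536) per the authors' deposited table; its nearest genes had a median of 0.08.

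The rises in TFIID were of 0.19 or less. Taf10, shared with the coactivator SAGA, was at 0.19 (adjusted p = 2.68e-05), Taf2, which contacts promoter DNA, at 0.17 (adjusted p = 1.12e-05), Taf8, the partner of Taf10, at 0.15 (adjusted p = 0.00152) and Taf4, a core subunit, at 0.11 (adjusted p = 0.0123) per the authors' deposited table. Taf10 overlaps Ilk on the opposite strand. Taf4b, the paralog of Taf4 known from the germline, stood at 0.0089 (adjusted p = 0.9) per the authors' deposited table. Per kilobase, Taf4b made up 31.05% of the pair's level in Tex19.1-/- cells and 32.55% in Tex19.1+/- cells. The core subunits Taf5 and Taf6, Taf3, which reads a histone mark of active promoters, Taf7, a partner of Taf1, and Taf12 lay between -0.09 and 0.02 and did not pass in the authors' deposited table.

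Other Taf symbols stand outside TFIID. Taf5l and Taf6l are the counterparts of Taf5 and Taf6 in SAGA. Taf5l rose, at 0.17 (adjusted p = 5.96e-06), and Taf6l did not pass, at -0.03 (adjusted p = 0.677) per the authors' deposited table. Per kilobase, Taf5l made up 79.75% of the Taf5l and Taf5 level in Tex19.1-/- cells and 77.0% in Tex19.1+/- cells. Taf5l overlaps Gm20388 on the opposite strand over its whole length. Of 10 measured genes of the SAGA core 2 rose and 2 fell. The acetyltransferase gene Kat2b was at -0.22, Supt3 at 0.30 and Sgf29 at -0.12 in the authors' deposited table. Taf15, an RNA-binding protein of the FET family, rose at 0.08 (adjusted p = 0.0429) per the authors' deposited table. That call ended on recentring, at 0.0788, on subtraction of the trend, at 0.065 (adjusted p = 0.1179), and against its 20 nearest genes, at -0.0067 (adjusted p = 0.8927).

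**Figure D5:**
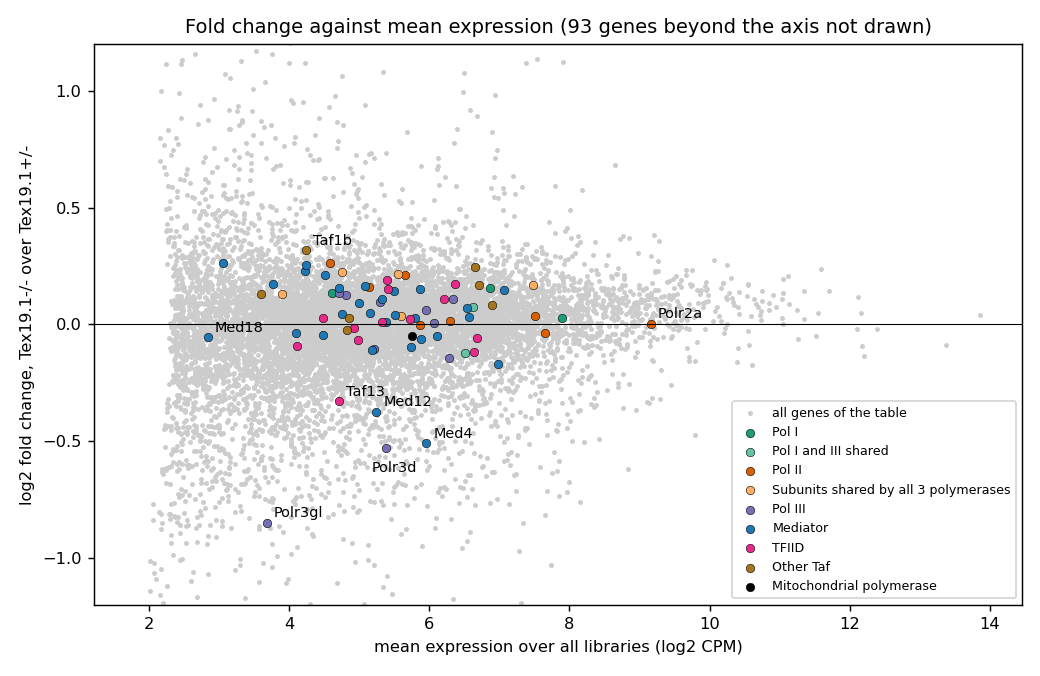
Log2 fold change (Tex19.1-/- over Tex19.1+/-, y axis) against mean expression over all libraries (log2 CPM, x axis) for all genes (grey) and the 78 genes coloured by complex; 93 genes beyond the axis are not drawn. The coloured points lie within the grey cloud, with Polr3gl lowest at -0.85 and Polr2a most expressed.

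Factors that work with these complexes were taken from further lists. Of 19 general transcription factors of Pol II 9 rose and 2 fell, with a median of 0.09 in the authors' deposited table. Gtf2f2, a subunit of TFIIF, was at -0.70 (adjusted p = 3.59e-51), Gtf2e1 of TFIIE at 0.23 and Gtf2h2 of TFIIH at 0.25 in the authors' deposited table. Gtf2f2 lies on the same stretch of chromosome 14 as Polr3d and Med4, and its 20 nearest genes had a median of -0.67. Of 27 measured elongation factors 8 rose and 4 fell. Ell2, of the super elongation complex, was at -0.31, Tcea1, which rescues stalled Pol II, at 0.29 and Aff1 at 0.19 in the authors' deposited table. Of 9 factors that assemble polymerases 3 rose and 1 fell, with Uri1 at 0.30, Gpn3 at -0.25 and Rpap3 at 0.24 in the authors' deposited table.

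Mean levels per kilobase differed more between subunits than between genotypes. They ran from 29.1 CPM for Polr2i to 85.0 for Polr2a in Pol II, and from 8.38 for Polr3f to 25.4 for Polr3g in Pol III. In Mediator they ran from 4.27 for Med18 to 63.3 for Med21, and in TFIID from 4.58 for Taf12 to 31.1 for Taf7. The medians were 52.2 for Pol II, 14.6 for Pol III, 15.2 for Mediator and 10.7 for TFIID. These levels rest on 1 transcript length per gene, so an unused long isoform lowers them.

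Sequence just before the start of transcription, as RefSeq annotates it, was read for the genes with an entry in RefSeq's promoter windows (GRCm38.p6), 65 of the 78. The 250 bases upstream are shown for the paralogs Polr3gl and Polr3g, whose fold changes were -0.85 and -0.14, for Taf13, the largest fall in TFIID, and for Polr2i, the largest rise in the polymerases, all in the authors' deposited table. Capitals mark matches, on either strand, to CCGGAAG (bound by ETS factors), the NRF1 motif, CACGTG (the E-box), TATAAA (the TATA box) and CCAAT (the CCAAT box). The windows are, on chromosome 3 from 96594182 to 96594431 (minus strand), on chromosome 13 from 81711014 to 81711263 (minus strand), on chromosome 3 from 108571449 to 108571698 (plus strand) and on chromosome 7 from 30231824 to 30232073 (plus strand), in the order given. GENCODE M21 starts Polr2i at 30231948 (plus strand), so part of its window lies inside the gene by that annotation.
Polr3gl: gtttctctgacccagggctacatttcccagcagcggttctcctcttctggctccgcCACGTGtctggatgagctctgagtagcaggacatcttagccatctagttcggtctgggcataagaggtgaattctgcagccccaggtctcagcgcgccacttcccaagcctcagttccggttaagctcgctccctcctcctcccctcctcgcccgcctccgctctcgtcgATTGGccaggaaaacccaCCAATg
Polr3g: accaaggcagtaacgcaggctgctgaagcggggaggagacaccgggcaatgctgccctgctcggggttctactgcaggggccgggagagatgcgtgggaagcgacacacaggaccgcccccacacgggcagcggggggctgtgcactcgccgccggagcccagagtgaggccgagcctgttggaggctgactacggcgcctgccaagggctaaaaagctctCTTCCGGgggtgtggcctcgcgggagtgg
Taf13: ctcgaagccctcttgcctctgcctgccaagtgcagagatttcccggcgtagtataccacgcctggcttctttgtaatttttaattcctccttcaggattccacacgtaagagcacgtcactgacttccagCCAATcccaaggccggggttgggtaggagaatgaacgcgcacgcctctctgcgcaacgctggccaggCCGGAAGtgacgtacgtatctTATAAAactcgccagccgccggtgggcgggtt
Polr2i: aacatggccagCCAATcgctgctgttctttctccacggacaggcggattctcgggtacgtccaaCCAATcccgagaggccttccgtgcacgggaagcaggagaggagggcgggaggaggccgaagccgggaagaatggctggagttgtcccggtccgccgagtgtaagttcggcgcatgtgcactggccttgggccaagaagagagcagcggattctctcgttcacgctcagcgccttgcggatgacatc

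The paralog promoters held different letters: Polr3gl had an E-box and a pair of CCAAT boxes, and Polr3g had 1 match to CCGGAAG. Among the 65 genes 24.6% held CCGGAAG, against 15.7% of 7640 measured genes and 7.05% of all 27025 genes with a window. TATAAA was found before 15.4% of the 65, against 5.42% of measured genes and 13.0% of all. CACGTG was found before 9.23%, against 9.12% of measured genes and 6.05% of all. CCAAT was found before 36.9%, against 37.4% of measured genes and 34.5% of all. The NRF1 motif was found before none of the 65, against 1.83% of measured genes and 0.781% of all. CCGGAAG stood before 4 of the 26 genes that rose and 3 of the 11 that fell. A match is a description of these letters only.

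Members that lie close together on a chromosome did not always share a call. Among 8 pairs of such neighbours, Med16 and Polr2e on chromosome 10 both rose, at 0.16 and 0.17, and Med12 and Taf1 on chromosome X both fell, at -0.37 and -0.12, in the authors' deposited table. Polr3gl fell and Polr3c rose, the only pair of the 8 with opposite calls. The call of Polr3c ended on recentring and on subtraction of the GC and length trend. Med17 and Taf1d, whose starts face away from each other 26.3 kilobases apart on chromosome 9, stood at -0.05 (adjusted p = 0.341) and 0.24 in the authors' deposited table. Taf8 rose, at 0.15, while Med20, 109.3 kilobases away on chromosome 17, stood at -0.04 (adjusted p = 0.495) per the authors' deposited table; the 20 genes nearest to Taf8 had a median of -0.14.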

How the data were processed

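Per the labels' protocols, messenger RNA of Tex19.1-/- and Tex19.1+/- ES cells was sequenced from TruSeq Stranded libraries. The authors' tools, per the submitters' processing notes, were edgeR, HTSeq 0.11.2, TopHat2 2.1.0 and Trim Galore 0.4.1, with the build mm10. No source used here gives the version of the authors' edgeR, the annotation, strand setting, filter or model. Per the file headers, the authors deposited log2 fold changes, mean expression as log2 CPM, p-values and adjusted p-values. Counts per library were not used here, so depth is unknown and the planned count model was replaced by the authors' test.

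Genes were called at the authors' adjusted p under 0.05. Standard errors were computed as the fold change over the normal quantile of its p-value (scipy 1.17.1). For alternatives, shifted fold changes were retested with that error and Benjamini-Hochberg adjustment over the genes with a shifted value. These were 10109 genes for recentring, 9703 for the GC and length trend and 9683 for the nearest genes. The subtracted medians and trends were taken as fixed, so their own spread is not in those adjusted p-values. Positions, lengths and GC content come from GENCODE M21, through 9587 direct and 135 older symbols, with 406 genes unmatched; lowess trends (span 0.3; statsmodels 0.14.6) used the principal transcript. Levels per genotype assume that the deposited mean is that of equal groups. The members and lists were chosen with earlier results of these data known. Named are the members, up to 3 genes with the smallest p of each further list, and genes said to be chosen later. The values of 1 member are counted in the totals and not reported here by name.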

Additional observations from a re-analysis of the deposited data

How the results depend on the processing

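Only the authors' comparison was analysed here, so leaving out replicates and refitting with DESeq2 were not run. No paired analysis was possible because no values per library were used; the labels do number the libraries of each genotype. Of the 78 genes 43 passed as deposited, against 11 with Bonferroni adjustment and 15 with a log2 fold change of at least 0.2 asked as well; over all genes these counts were 5236, 2413 and 2957. Bonferroni adjustment left 0 calls in Pol I, 0 in the subunits shared by Pol I and III, and 1 in Pol II. The subunits shared by all 3 polymerases kept 1, Pol III 2, Mediator 2, TFIID 2 and the other Taf genes 3. At an adjusted p under 0.01, Pol I kept 1 call and Pol III 4, against 32 of the 78 genes and 4187 of all 10128 genes. With the size of at least 0.2, Pol I had 0 calls and the subunits shared by Pol I and III had 0. Pol II had 2, the subunits shared by all 3 polymerases 2, Pol III 2, Mediator 6, TFIID 1 and the other Taf genes 2. Both settings call fewer genes by construction. Set against the 20 nearest genes, Mediator had 10 calls, and among genes past the threshold in either reading Polr3d at 0.21, Med4 at 0.17, Med20 at 0.12, Polr2a at -0.15 and Taf15 at -0.0067 changed sign; the cause was not tested. Med13 at -0.05, Med8 at -0.05, Polr3e at -0.04 and Polr2g at 0.0039 also changed sign and passed in neither reading. After subtraction of the GC and length trend 39 of the 78 genes passed, recentred on the median of all genes 41, and at 16 CPM or more 40 of 72. Over all genes these counts were 4875 of 9703, 5223 of 10109 and 3825 of 7401. Left out after the data were seen, Polr3d and Med4 leave 41 calls, 10 of them lower. Depth is unknown, so what it limits cannot be stated.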
